A study of Caenorhabditis elegans with 2 samples.

Results

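The nuclear hormone receptor genes of Caenorhabditis elegans were examined for candidate regions of the transcription factor ALR-1 on chromatin. They were chosen by name, as all protein-coding genes called nhr-* in the Ensembl annotation of WBcel235, which gave 269 of 19973 genes on the 6 nuclear chromosomes. A region was given to the gene with the nearest protein-coding transcript start, at any distance. By this rule 219 of the 12996 regions of the pooled list, 96 of 5071 in replicate 1, 148 of 7568 in replicate 2, and 2 of the 103 peaks of the thresholded list belonged to these genes.

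The measurements came from chromatin immunoprecipitation and sequencing (ChIP-seq) of whole L2 larvae, the second larval stage, of mixed sex. Both samples were biological replicates of 1 group, strain OP200, which carries the unc-119(ed3) mutation on chromosome III and the integrated transgene wgIs200 with eGFP-tagged alr-1. There was thus no untagged or mutant group, and a region could come from any cell type that expresses the transgene. The candidate lists were made by the authors as input for an IDR analysis (irreproducible discovery rate), which keeps regions whose order is alike in the replicates, and they hold background as well as peaks. A candidate region is therefore not a called binding site.

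Nuclear hormone receptors are transcription factors with a zinc-finger DNA-binding domain and, in most cases, a domain that binds small lipophilic ligands such as steroids or fatty acids. Nematodes have a greatly enlarged family, most of it descended from a receptor like vertebrate HNF4, with many copies in clusters on chromosome V. A smaller set is shared with insects and vertebrates and acts in moulting, cell fate and metabolism. ALR-1 is a homeodomain protein related to Drosophila Aristaless and is known for roles in sensory and motor neurons.

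The sequences below are those at the points of the strongest pooled regions of 8 of the 9 receptor genes with the highest signals. Each is the 201 bases centred on the region's point, from RefSeq's WBcel235 genome (ce11 coordinates), plus strand, 5′ to 3′. Capitals mark GAGAG or its reverse complement CTCTC, and in nhr-137 also TAATTA, the core recognised by many homeodomain proteins. The windows are chrII:9603483-9603683 for nhr-19, chrX:12670408-12670608 for nhr-17, chrX:14561680-14561880 for nhr-3 and chrX:2602984-2603184 for nhr-40. Those of the others are chrX:15707639-15707839 for nhr-48, chrX:13739402-13739602 for nhr-71, chrX:6664092-6664292 for nhr-137 and chrV:2281670-2281870 for nhr-228.
nhr-19: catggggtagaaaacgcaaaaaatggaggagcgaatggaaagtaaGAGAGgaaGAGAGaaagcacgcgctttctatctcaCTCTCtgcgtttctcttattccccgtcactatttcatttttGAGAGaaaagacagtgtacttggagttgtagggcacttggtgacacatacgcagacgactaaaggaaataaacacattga
nhr-17: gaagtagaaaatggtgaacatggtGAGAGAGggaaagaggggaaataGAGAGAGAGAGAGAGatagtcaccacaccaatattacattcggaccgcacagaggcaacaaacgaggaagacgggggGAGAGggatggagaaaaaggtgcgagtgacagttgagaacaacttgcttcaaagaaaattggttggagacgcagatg
nhr-3: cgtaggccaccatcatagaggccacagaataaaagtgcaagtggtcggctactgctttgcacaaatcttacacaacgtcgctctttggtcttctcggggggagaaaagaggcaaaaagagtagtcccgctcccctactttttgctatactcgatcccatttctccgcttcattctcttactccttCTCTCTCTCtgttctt
nhr-40: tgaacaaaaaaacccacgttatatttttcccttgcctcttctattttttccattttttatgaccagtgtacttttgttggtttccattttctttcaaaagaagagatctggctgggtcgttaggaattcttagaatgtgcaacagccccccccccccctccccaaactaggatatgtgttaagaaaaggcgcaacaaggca
nhr-48: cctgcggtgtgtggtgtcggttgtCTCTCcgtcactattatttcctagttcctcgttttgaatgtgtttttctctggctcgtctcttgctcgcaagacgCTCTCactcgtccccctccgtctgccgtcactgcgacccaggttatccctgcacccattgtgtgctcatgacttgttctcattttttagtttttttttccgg
nhr-71: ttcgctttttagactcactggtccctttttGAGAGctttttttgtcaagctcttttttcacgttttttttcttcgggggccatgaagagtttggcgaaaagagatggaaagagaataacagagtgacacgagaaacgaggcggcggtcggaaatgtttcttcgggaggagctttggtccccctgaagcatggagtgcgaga
nhr-137: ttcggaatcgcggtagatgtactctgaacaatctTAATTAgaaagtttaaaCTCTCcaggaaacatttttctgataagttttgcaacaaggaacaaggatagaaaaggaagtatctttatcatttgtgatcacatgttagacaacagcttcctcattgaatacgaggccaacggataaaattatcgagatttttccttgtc
nhr-228: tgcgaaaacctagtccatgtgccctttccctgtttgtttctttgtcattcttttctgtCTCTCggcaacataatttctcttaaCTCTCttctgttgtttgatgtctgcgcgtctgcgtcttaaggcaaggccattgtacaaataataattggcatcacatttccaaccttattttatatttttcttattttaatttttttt

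As a family the receptor genes were near a candidate region about as often as any other gene. A pooled region was nearest to 98 of the 269 receptor genes (36.4%, exact Clopper-Pearson 95% interval 30.7 to 42.5), and 36.8% of all protein-coding genes had one. Replicate 1 gave 61 receptor genes (22.7%) against 18.5% of all genes, and replicate 2 gave 77 (28.6%) against 24.3%. A region in each of the replicate lists was found for 39 receptor genes (14.5%) and 10.5% of all genes. A pooled region that overlapped a region of both replicates by at least 1 bp was found for 23 (8.55%) and 6.66% of all genes. With chromosome X left out, such a region was found for 13 of 246 receptor genes (5.28%) and 5.81% of all genes. An IDR peak was nearest to 2 receptor genes (0.743%) and 0.481% of all genes. Of the 269, 115 (42.8%) had a region in at least 1 list, as had 41.5% of all genes, and 154 had none. Among the 115 were 17 with a replicate region but no pooled one, of which nhr-11 and nhr-104 had a region in each replicate list. These shares describe the lists. They were not tested against each other, since genes and regions are not replicates, and the intervals cover counting error only.

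The chromosomes differed far more than the family did as a whole. On X, 18 of 23 receptor genes had a pooled region (78.3%, interval 56.3 to 92.5), where 52.7% of the other X genes did (50.8 to 54.6). A pooled region found in both replicates belonged to 10 of the 23 X receptors (43.5%, 23.2 to 65.5) and to 11.8% of the other X genes (10.6 to 13.1). In replicate 1 the X shares were 52.2% and 28.6%, and in replicate 2 they were 69.6% and 39.1%, so the X receptors stood higher in each replicate list. In the replicate lists, gaps in the same direction were seen on IV and II, and on III mainly in replicate 2. On IV, 16 of 33 receptors (48.5%, 30.8 to 66.5) had a region in replicate 1 and as many in replicate 2, beside 16.01% and 21.9% of other IV genes. On II, 6 of 15 had one in replicate 1 and 5 in replicate 2, beside 16.3% and 20.97% of other II genes. On III, 2 of 8 had one in replicate 1 and 5 in replicate 2, beside 21.9% and 27.9% of other III genes. A pooled region found in both replicates belonged to 3 of 33 receptors on IV (beside 5.42% of other genes) and 2 of 15 on II (beside 5.50%). It belonged to 0 of 8 on III (beside 7.52%) and 0 of 23 on I (beside 7.57%). The replicates went different ways on I (26.1% beside 20.2% in replicate 1, 17.4% beside 26.6% in replicate 2). They also did on V (11.4% beside 12.9% in replicate 1, 18.6% beside 16.6% in replicate 2). The 5 X receptors without a pooled region were nhr-26, nhr-167, nhr-214, nhr-272 and nhr-281. The gene alr-1, which the transgene carries in addition, is itself on X, with the nearest receptor gene start 856 kb away.

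On chromosome V, home to 167 of the 269 receptor genes, 45 had a pooled region (26.9%), beside 27.5% of the other V genes. A pooled region in both replicates belonged to 8 of them (4.79%), beside 4.33% of the other V genes. The V receptors thus lay at the level of their chromosome, with 37 of the 45 having a single region and none more than 3. On chromosome IV the share was 18 of 33 (54.5%) beside 34.2% of other genes. It was 7 of 15 on II (46.7%, beside 32.8%), 4 of 8 on III (beside 41.8%) and 6 of 23 on I (26.1%, beside 40.4%). With X left out, 80 of 246 receptor genes (32.5%) and 34.2% of all genes had a pooled region.

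**Figure D1:**
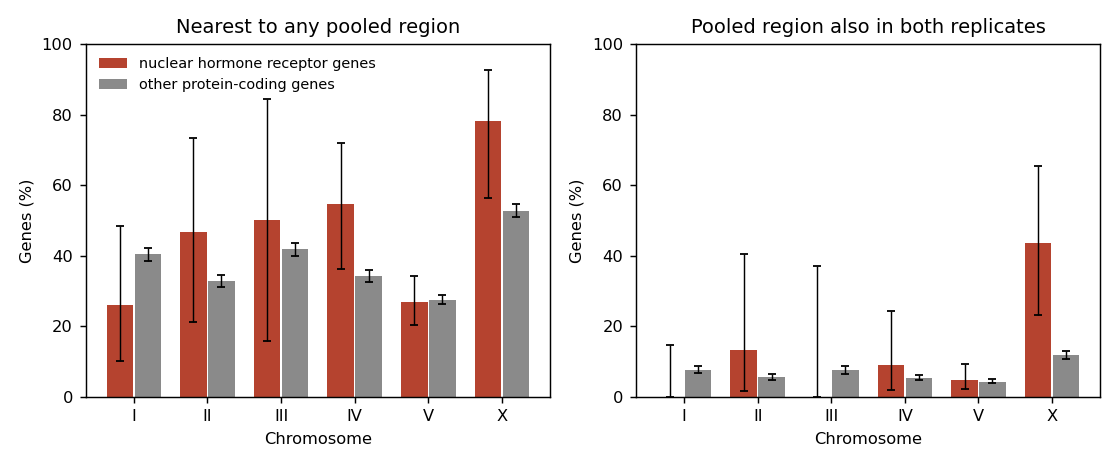
Share of genes (%) on each chromosome that were nearest to a pooled region (left) and to a pooled region overlapping a region of both replicates (right), for nuclear hormone receptor genes (red) and other protein-coding genes (grey), with exact 95% intervals. On X the receptor bars stand at 78.3% and 43.5% beside 52.7% and 11.8% for other genes, while on V the 26.9% of receptors is beside 27.5%.

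How much genome lies nearest to a gene's starts sets how many regions it can be given, so this stretch was measured for every gene. Its median was 3974 bp for receptor genes and 3771 bp for other genes. X receptors had long stretches, with a median of 9175 bp beside 5304 bp for other X genes, and V receptors had 3441 bp beside 3251 bp. Of the 37 receptors with a stretch of at least 10000 bp, 30 had a pooled region (81.1%), beside 71.3% of other genes of that size. For stretches of 2000 to 5000 bp the receptor share was 25.5% of 157 genes, beside 29.6%. It was 5 of 19 for shorter stretches (26.3%, beside 19.7%) and 23 of 56 from 5000 to 10000 bp (41.1%, beside 49.1%). Of the 37 with the longest stretches, 15 lay on IV, 11 on X and 5 on V.

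Per length of stretch, X receptors still had the higher number. They had 32.7 pooled regions per 100 kb, beside 17.4 for other X genes. Pooled regions that overlap each other were counted separately in both groups. Among receptors they occurred on X at nhr-1, nhr-3, nhr-14, nhr-48 and nhr-71, and off X at nhr-57, nhr-80, nhr-88 and nhr-256. Densities with such regions merged were not computed. Without nhr-14, the member with most regions, the X receptors had 29.7. Among X genes with a stretch of at least 10000 bp the values were 36.4 for 11 receptors and 20.1 for 417 other genes. Replicate 1 had 15.4 regions per 100 kb at X receptors and 6.55 at other X genes, and replicate 2 had 21.7 and 10.7. Off X the pooled values were 12.1 at receptors and 11.96 at other genes, but the chromosomes behind them went both ways. Receptors on II had 23.99 beside 12.6 and those on IV 15.4 beside 10.7. Pooled values were lower than those of other genes on V (8.62 beside 10.5), I (10.1 beside 13.04) and III (11.5 beside 13.8). In the replicate lists, V receptors had 3.14 beside 4.17 in replicate 1 but 6.11 beside 5.78 in replicate 2. Off X, receptors had 5.12 beside 4.71 in replicate 1 and 8.24 beside 6.82 in replicate 2.

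**Figure D2:**
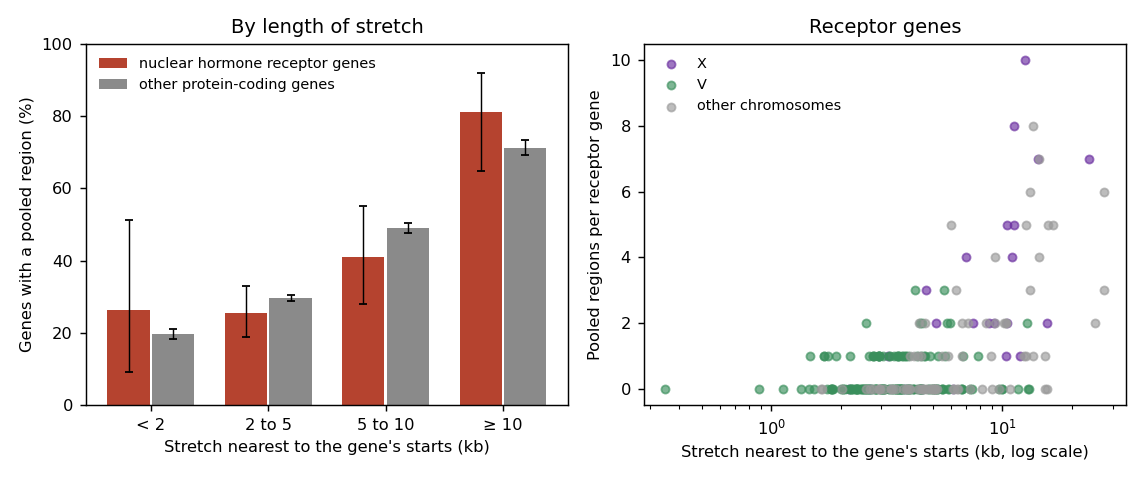
Left, share of genes (%) with a pooled region by the length of genome nearest to the gene's starts (kb), for receptor genes (red) and other protein-coding genes (grey), with exact 95% intervals. Right, number of pooled regions of each receptor gene against its stretch (kb, log scale), coloured by chromosome: V receptors crowd at short stretches with at most 3 regions, and the gene with 10 is nhr-14 on X.

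Receptors beside another receptor had a lower share over the whole genome but not within V, where most of them lie. Of the 269, 137 lay next to another receptor gene on the chromosome, 107 of them on V. A pooled region was nearest to 37 of the 137 (27.0%) and to 61 of the 132 with no receptor next to them (46.2%). Within V the shares were 30 of 107 and 15 of 60, so there receptors beside another receptor did not have the lower share. Along V, 17 of 41 receptors in the middle one of 3 equal parts of the chromosome had a region (41.5%) and 28 of 126 in the outer parts (22.2%), and the other V genes showed 34.97% and 23.2%. How reads from near-identical cluster copies were handled is not given in the sources used here.

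The strongest receptor region lay within nhr-19 (WBGene00003618, chrII:9598180-9605526, minus strand). It covered chrII:9603423-9603742 in an intron, 1667 bp downstream of the nearest nhr-19 start, and was an IDR peak. Its signal, a value from the authors' caller that is comparable only within a list, was 28.4 in the pooled list (rank 26). The overlapping regions had a signal of 3.92 in replicate 1 (rank 1276) and 13.7 in replicate 2 (rank 131). The region thus stood nearer to the top of the list in replicate 2 (7568 regions) than in replicate 1 (5071 regions). A second nhr-19 region, 51 bp upstream of the start, had a pooled signal of 10.9 (rank 921) and was also found in both replicates (ranks 2000 and 1037). In all, 5 pooled regions belonged to nhr-19.

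The other IDR peak of the family lay 2654 bp upstream of nhr-17 (WBGene00003616, chrX:12663837-12667854, minus strand), in intergenic sequence at chrX:12670348-12670667. Its pooled signal was 21.6 (rank 91), with 5.29 in replicate 1 (rank 603) and 12.9 in replicate 2 (rank 164). The nearest start of another gene, that of nlp-76, was 6605 bp away, on the side of the region where nhr-17 lies. The sequence at this point, printed above, holds GAGAG or CTCTC at 9 overlapping positions, with 1 unbroken alternating run of G and A of 17 bases.

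Just outside the threshold came nhr-3 (WBGene00003602, chrX:14558504-14561432, plus strand). The weakest IDR peak had a signal of 21.3 (rank 103), and the strongest nhr-3 region had 19.5 (rank 143). This region, chrX:14561620-14561939, lay in intergenic sequence beyond the 3′ end of the gene, 3276 bp downstream of the start. It was the best ranked receptor region of replicate 1 (rank 61, signal 10.2) and had rank 379 in replicate 2 (signal 9.94). Both replicates therefore placed it among their stronger regions, and nhr-3 had 8 pooled regions altogether.

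The next receptors by pooled signal were nearly all on X. An intronic region of nhr-40, a receptor needed for normal movement and muscle development, had a pooled signal of 15.7 (rank 319, chrX:2602924-2603243). It had 5.18 in replicate 1 (rank 635) and 11.6 in replicate 2 (rank 241). A region 474 bp upstream of nhr-48, a relative of Drosophila DHR96, had 13.6 (rank 504), with ranks 472 and 1016 in the replicates. The region 440 bp upstream of nhr-35, the only pooled region of that gene, had 12.4 (rank 649), with ranks 209 and 625. For nhr-71 the strongest region lay 7813 bp upstream (12.2, rank 684), with ranks 776 and 1754.

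At nhr-137 the replicates placed the region far apart. Its intronic region had a pooled signal of 12.1 (rank 708), but 9.11 in replicate 1 (rank 99) against 2.14 in replicate 2 (rank 7138). The strongest V receptor was nhr-228, with a region over its start (11 bp downstream, pooled signal 11.98, rank 722, replicate ranks 1565 and 2834). The strongest nhr-14 region (11.8, rank 747) overlapped a region of replicate 1 only (rank 733). Those of nhr-45 (10.7, rank 963) and nhr-34 (10.7, rank 967) overlapped a region of replicate 2 only, with ranks 767 and 289.  The 15 receptors with the strongest regions were completed by nhr-31 (10.6, rank 995), nhr-21 (10.2, rank 1064) and nhr-57 (9.31, rank 1359), and 9 of the 15 lay on X. In replicate 1 the 5 highest receptors were nhr-3, nhr-137, nhr-35, nhr-21 (rank 341) and nhr-105 (rank 360), and in replicate 2 they were nhr-19, nhr-17, nhr-40, nhr-34 and nhr-3. The nhr-105 region had a pooled rank of 2040.

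**Figure D3:**
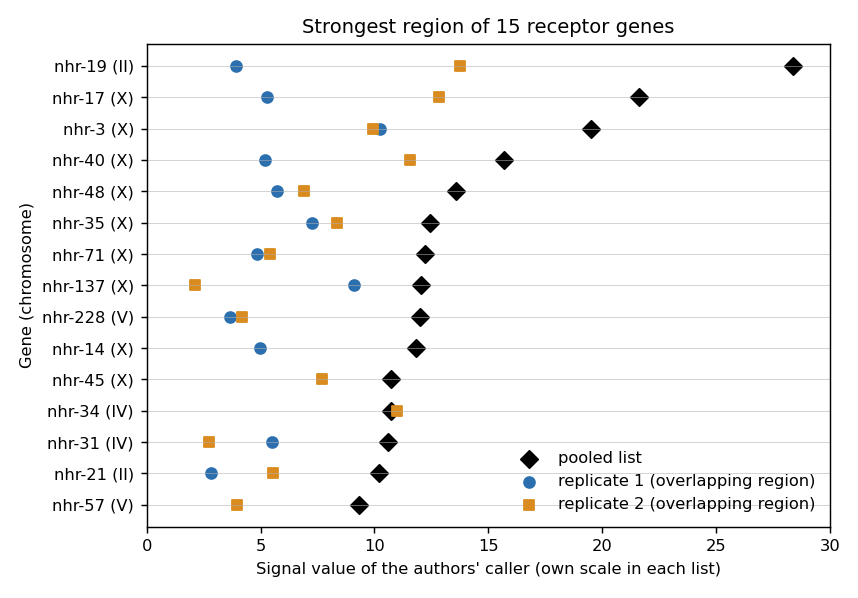
Signal of the strongest pooled region of the 15 receptor genes with the highest values (black diamonds), and of the overlapping regions in replicate 1 (blue circles) and replicate 2 (orange squares), each on the scale of its own list. At nhr-19 the replicate symbols stand at 3.92 and 13.7 and at nhr-137 at 9.11 and 2.14 (replicate 1 first), and a missing symbol means no overlapping region.

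Over all 219 receptor regions the signals were ordinary for the list. The median pooled signal was 4.15, from 2.53 to 28.4, and that of regions of other genes was 3.89. The receptor median lay at percentile 54.2 of all pooled regions. On X the medians were 4.62 and 3.997. Among the 1000 strongest pooled regions were 14 receptor regions (6.39% of the family's regions, beside 7.72% of others), belonging to 13 genes, of which 9 were on X. The −log10 q-value stood at the list's ceiling of 2.90 for 4 receptor regions (1.83%, beside 3.11% of other regions). These were regions of nhr-19, nhr-17, nhr-3 and nhr-40.

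Over all chromosomes together, the shares of receptor regions that overlapped the replicate lists were a few points above those of other regions. A region of replicate 1 overlapped 81 of the 219 (37.0%, beside 30.8% of other regions), and one of replicate 2 overlapped 120 (54.8%, beside 48.5%). Both were found for 36 (16.4%, beside 13.2%) and neither for 54 (24.7%, interval 19.1 to 30.9, beside 33.9%, 33.1 to 34.8). On X, 18 of 68 receptor regions overlapped both (26.5%, beside 14.3% of other X regions) and 33 overlapped replicate 1 (48.5%, 36.2 to 61.0, beside 31.4%). On V, 9 of 55 overlapped both (16.4%, beside 12.2% of other V regions). Shares of regions with X left out were not computed. These differences were not tested. Since the pooled list was called on the same reads, this overlap is partly built in. The 36 regions formed 31 distinct pairs of replicate regions, in which Spearman's rho between replicate signals across pairs was 0.26, and it was 0.22 across 1542 pairs of other genes. The pairs share libraries and local chromatin and are described only.

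The 23 receptors with a pooled region in both replicates were 10 on X, 8 on V, 3 on IV and 2 on II. The X set comprised nhr-1, nhr-3, nhr-14, nhr-17, nhr-32, nhr-35, nhr-40, nhr-48, nhr-71 and nhr-137. On IV they were nhr-31, nhr-34 and nhr-46, and on II nhr-19 and nhr-21. The V set comprised nhr-84, nhr-136, nhr-162, nhr-183, nhr-207, nhr-228, nhr-256 and nhr-291. Apart from nhr-228, the best pooled region of each V receptor of the set ranked between 2719 and 5319, and those of the X receptors ranked between 91 and 1535.

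A few receptors collected many regions. Of the 269, 171 had no pooled region, 52 had 1 and 22 had 2, while 14 receptors with at least 5 held 89 of the 219. The top member was nhr-14 with 10, followed by nhr-3 and nhr-21 with 8 and nhr-1, nhr-34 and nhr-71 with 7. Over all protein-coding genes, 35 had more than 10, and the largest number at a gene outside the family was 25. Among genes with any pooled region the median was 1 for receptors and 1 for other genes. The share of all genes with at least 5 regions was not counted, so this spread is not shown to be particular to receptors. The 219 regions formed 207 separate stretches, since some pooled regions overlapped each other.

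At nhr-14, an HNF4-like receptor known for roles in iron handling and pathogen defence, the regions ran from 9518 bp upstream to 2598 bp downstream of the start. The strongest lay 5849 bp upstream (signal 11.8) and the next in an intron 749 bp downstream (9.61, ranks 1474 and 2098 in the replicates). Of the 10, 3 overlapped regions of both replicates, at 391 bp upstream and at 749 and 959 bp downstream, and the downstream pair overlapped the same replicate regions. The nearest start of another gene to the strongest region was that of mec-10, which encodes a channel subunit of the touch receptor neurons. It was 11713 bp away, on the far side of nhr-14, so mec-10 does not adjoin the region. At nhr-21 the strongest region lay in an intron 2228 bp upstream of an internal start (10.2), and at nhr-1 it lay 2367 bp upstream (8.82) and was found in replicate 2 only (rank 959).

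**Figure D4:**
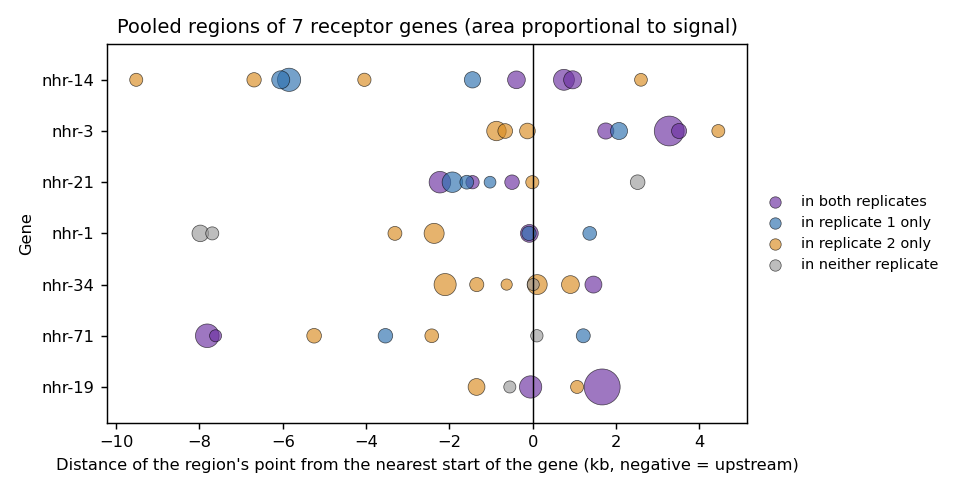
Position of each pooled region of 7 receptor genes relative to the nearest start of the gene (kb, negative upstream), with symbol area proportional to pooled signal and colour showing which replicate lists held an overlapping region. The regions of nhr-14 spread from 9518 bp upstream to 2598 bp downstream, and the largest symbol is the nhr-19 intron region of signal 28.4.

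Receptors that are conserved or act in development were then taken as a list of 12 genes, described by counts only. This list was chosen with earlier results of these data known. A pooled region was nearest to 7 of the 12 (58.3%), beside 36.8% of all protein-coding genes. In both replicates it was found for 2 of them, nhr-40 and nhr-48, beside 6.66% of all genes. The median stretch of the 12 was 9063 bp. Several members known from other animals had low signals or no pooled region. For nhr-25, the relative of Drosophila FTZ-F1 needed for moulting and epidermal fate, the best of 2 pooled regions had a signal of 2.89 (rank 10319). The moulting regulator nhr-23, related to Drosophila DHR3 and vertebrate ROR, had no pooled region, and its best region in replicate 1 had rank 2684. The tailless relative nhr-67 had a region in replicate 1 only (rank 2937) and nhr-6, the relative of vertebrate NR4A receptors, in replicate 2 only (rank 5456).

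The remaining members of that list with a pooled region had best signals on both sides of the family's median. A promoter region of nhr-85, related to Drosophila E75, had a signal of 4.99 (rank 4509) and overlapped replicate 1 (rank 1306). For nhr-8, a relative of Drosophila DHR96 with a role in cholesterol balance and xenobiotic resistance, the region 108 bp upstream had 4.99 (rank 4501) and overlapped replicate 2 (rank 2387). At nhr-41, related to Drosophila DHR78, the best region had 6.32 (rank 2997), and at nhr-91 it had 3.52 (rank 7788). No region of any list was nearest to nhr-2 or nhr-60.

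A second list, of 18 genes, was drawn up under the heading of lipid and nutrient metabolism, also with earlier results of these data known. It includes genes described below by other traits, such as nhr-31 and nhr-57, so its counts do not describe metabolic receptors as a class. A pooled region was nearest to 16 of the 18 (88.9%), beside 36.8% of all protein-coding genes, which describes the list only. The median stretch of the 18 was 6625 bp, beside 3765 bp for receptors on neither list, and reached 27693 bp at nhr-46. A pooled region in both replicates was found for 2 of the 18, nhr-31 and nhr-46 (11.1%, interval 1.38 to 34.7). The share of all protein-coding genes was 6.66%. The strongest region on the list was that of nhr-45, given above. An intronic region of nhr-31, which acts in growth of the excretory cell, had a signal of 10.6 (rank 995), with replicate ranks 534 and 5665. The intronic region of nhr-46 had 8.88 (rank 1510), with ranks 1992 and 2842. At nhr-57, known as a target of the hypoxia factor HIF-1, a region 22 bp downstream of the start had 9.31 (rank 1359) and overlapped replicate 2 (rank 3023).

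The fatty acid regulators of the list had regions of moderate or low signal. For nhr-49, a central regulator of fat metabolism, the best of 2 pooled regions had 3.98 (rank 6169), although its best replicate 1 region, 674 bp downstream of a start, had rank 620. Its partner genes nhr-80 and nhr-66 had best signals of 6.46 (rank 2859) and 6.91 (rank 2542). A region of nhr-62, which takes part in the response to dietary restriction, had 6.93 (rank 2522). There was no pooled region at nhr-13 or nhr-114. Of the 18, 6 lay on V, where most receptors lie. Off V, 19 of the 23 receptors on either list had a pooled region (82.6%), beside 34 of 79 receptors on neither list (43.0%). The median stretch was 9338 bp for the 23, of which 11 had at least 10000 bp, and 5115 bp for the 79, of which 21 did. Both lists were chosen with earlier results of these data known, and the part of the stretch in this difference was not tested.

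Other genes of nuclear receptor signalling were taken as a list of 16, also chosen with earlier results of these data known. Of the 16, unc-55, daf-12 and din-1 had a region among the 1000 strongest. The share of all protein-coding genes with such a region was not counted. Of 5 nuclear receptors with other names, 4 had a pooled region and 2 had one in both replicates, where 36.8% and 6.66% of all protein-coding genes did, and the same shares stand beside the counts that follow. For unc-55, a receptor that sets the synaptic pattern of motor neurons, the best signal was 15.8 (rank 315, with ranks 4010 and 298 in the replicates). The best of 8 regions of daf-12, the receptor for the steroid dafachronic acid, had 14.1 (rank 450). For fax-1, known for neuron identity, it was 6.98 (rank 2477), for odr-7, known for the AWA olfactory neurons, 3.25 (rank 8800), and sex-1 had none. Of 4 genes for dafachronic acid synthesis only daf-9 had a pooled region (5.06, rank 4386). Among the coregulators, din-1, a corepressor partner of daf-12, had 10 regions (best 12.7, rank 620) and mdt-15 had none. The stretch nearest to the starts was 25468.5 bp at din-1, 36995 bp at daf-12 and only 360 bp at mdt-15. The part of the stretch in these counts was not tested. Of 5 genes known to act downstream of nhr-49, 3 had a pooled region, the best being fmo-2 (6.52, rank 2804). None of these 16 genes was nearest to an IDR peak, and 0.481% of all protein-coding genes were.

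Receptor regions lay at a larger median distance from starts than other regions, a difference that was not tested. The point was within 3000 bp of the start for 167 of 219 (76.3%), beside 83.0% of other regions, and the median distance was 1315 bp beside 1003 bp. A promoter, taken as the 1000 bp before and 200 bp after any start of the same gene, held 80 receptor regions (36.5%, interval 30.1 to 43.3), beside 39.5% of other regions. Intergenic sequence held 80 (36.5%, beside 26.4%), introns 45 (20.5%, beside 21.8%) and exons 14 (6.39%, interval 3.54 to 10.5, beside 12.4%).

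This pattern also differed between X and V. On X, 18 of 68 receptor regions were in promoters (26.5%) and 32 in intergenic sequence (47.1%), beside 33.0% and 32.7% of other X regions. On V, 36 of 55 were in promoters (65.5%, interval 51.4 to 77.8), beside 40.96% of other V regions, and all but 1 lay within 3000 bp of the start. A start of another gene lay within 1000 bp of the point for 8 receptor regions (3.65%), beside 9.60% of others. One of these was shared by a pair of receptors, 45 bp from a start of nhr-152 and given to nhr-94 (signal 4.14). Among the 14 receptor regions of rank up to 1000, 4 were in promoters, 4 in introns and 6 in intergenic sequence.

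The sequences at the points were searched on both strands within 100 bp. TAATTA was present at 12 of 219 receptor regions (5.48%, interval 2.86 to 9.38), beside 8.01% of other regions and 9.29% of windows of the same length at the starts of all protein-coding genes. Of the 12, the nhr-137 region printed above was the only one that overlapped both replicates, and the others ranked 3536 or lower. The motif was thus absent from the windows of 13 of the 14 receptor regions of rank up to 1000.

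GAGAG, a motif added after the printed sequences had been seen, was present at 97 receptor regions (44.3%, interval 37.6 to 51.1), beside 39.3% of other regions and 29.5% of windows at gene starts. It was most frequent at strong regions. In ranks 1 to 1000 it was found at 11 of 14 receptor regions (78.6%) and 57.4% of others, in ranks 1001 to 4000 at 39 of 58 (67.2%) and 48.9%, and from rank 4001 at 47 of 147 (32.0%) and 34.05%. Among the printed sequences it occurs 4 times at nhr-19, 9 times at nhr-17, 3 times at nhr-3 and not at nhr-40. All printed windows belong to the 14 regions of rank up to 1000, and all but that of nhr-40 hold the motif. The 78.6% is thus partly drawn from the sequences that led to the motif, and a share without them was not computed. The mean GC content of the windows was 37.5% ± 6.31 (SD across 219 regions) at receptor regions and 38.4% ± 6.596 at other regions. These matches describe letters in a window and do not identify what bound there.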

How the data were processed

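The deposited data used were 4 region lists on ce11: a pooled list from both replicates, 1 list from each replicate, and the optimal IDR list. Per the authors' file notes, the candidate lists hold peaks and background as input for IDR. The aligner, caller, IDR threshold and handling of multi-mapping reads were not given in the sources used here, and control data were not analysed here. The authors' signal value per region has no stated scale, and the deposited −log10 q-value is read from the file format. Regions were 320 bp wide in the pooled list, 390 bp in replicate 1 and 304 bp in replicate 2. Read depth is unknown, so no precision could be drawn from it.

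Genes came from Ensembl release 115 (WBcel235, the sequence of ce11) and bases from RefSeq's WBcel235 genome. Coordinates are 1-based. The sequence at nhr-35 is not reported here. A region went to the nearest protein-coding transcript start. The named genes were those with an IDR peak, the 15 strongest, those with most regions, listed members found in both replicates, and the strongest in each replicate; further members were named after their values were seen. Members and lists were chosen with earlier results of these data known. No test was made, since there was 1 group of 2 replicates. The tools were scipy 1.17.1, pandas 2.3.3 and numpy 2.4.6 under Python 3.11.15, with figures from matplotlib 3.10.9, and the assignment and overlap code was checked on simulated data.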

Additional observations from a re-analysis of the deposited data

How the results depend on the processing

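No paired analysis was possible because the samples form 1 group. The settings were planned, except leaving out chromosome X, which was chosen after seeing the data. The 98 receptor genes with a pooled region numbered 92 within 3000 bp of a start, 98 with 1 start per gene, 66 in the stronger 50% of the list and 80 without X, and 61 to 77 with 1 replicate's own list. Those lists are shorter than the pooled one. The 23 with a region in both replicates numbered 20 to 23 under the other settings and 13 without X, which removes 10 of them. The 2 genes with an IDR peak became 1 in the stronger 50% of that list and 1 without X. Among the 103 strongest regions of 1 replicate there were 0 to 2 receptor genes, and the 2, in replicate 1, were nhr-3 and nhr-137, not nhr-19 and nhr-17. The promoter share (36.5%) was 47.9% within 3000 bp of a start, 29.2% with 1 start per gene, 47.9% for promoters reaching 2000 bp upstream, 26.0% for 500 bp upstream to 100 bp downstream, and 39.6% to 39.9% with 1 replicate. It changes with the window by construction. The TAATTA share (5.48%) was 2.74% within 50 bp and 9.59% within 150 bp of the point. The median signal (4.15) was 5.88 in the stronger 50%, which keeps only higher values. The ce10 lists were not analysed here, and depth limits could not be set without read counts.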
